A study of Mus musculus with 9 samples.

Results

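The long noncoding RNAs Malat1, Mir17hg, Pvt1, Meg3, Rian, Tug1, Airn and Dleu2 were followed through the isolation of mouse mammary epithelial cells. These 8 genes were chosen by name, as transcripts known mainly for acting or being processed in the nucleus, and they are 8 of the 19938 genes measured by an array row that carries a single gene symbol. The cells were wild-type and came from mammary glands of C3H females 8 to 9 weeks old. All 3 groups had been freed from fat with collagenase. The untrypsinized group was taken at that point, the trypsinized group after further digestion with trypsin, and the mock sorted group was digested likewise and then put through a mock run of fluorescence-activated cell sorting. Each group had 3 arrays, called biological replicates in the labels, which do not name the animals. The p-values below therefore reflect only how far such arrays scatter, and part of this scatter may be technical. All 8 genes are classed as lncRNA in the RefSeq gene table of GRCm38.p6. Where the RNA sat in the cell was not measured, so nuclear retention is background and not a property read from these arrays.

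Malat1 is an abundant RNA of nuclear speckles, the bodies that store splicing factors. Mir17hg and Dleu2 are host transcripts from which the enzyme Drosha cuts microRNA hairpins in the nucleus. Pvt1 lies beside the Myc oncogene. Meg3 and Rian are expressed from the maternal copy of the imprinted Dlk1-Dio3 region and carry small RNAs in their introns, and Airn, transcribed from the paternal copy, runs antisense across Igf2r and silences it in cis. Tug1 is a broadly expressed RNA associated with chromatin regulation.

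The microRNAs of Mir17hg are shown first because 4 of their 5 measured genes were called after trypsin. The sequences are RefSeq mature microRNAs on GRCm38.p6, written 5′ to 3′, with the seed (bases 2 to 8) in capitals. They lie on the plus strand of chromosome 14 in the order given, within 836 bases from the first hairpin to the last.
miR-17-5p: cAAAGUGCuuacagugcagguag
miR-18a-5p: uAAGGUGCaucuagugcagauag
miR-19a-3p: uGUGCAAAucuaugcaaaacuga
miR-20a-5p: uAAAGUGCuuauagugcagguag
miR-19b-3p: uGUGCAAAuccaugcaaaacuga
miR-92a-3p: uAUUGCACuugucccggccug
miR-17 and miR-20a share the seed AAAGUGC, and miR-19a and miR-19b share GUGCAAA, whereas the seeds of miR-18a and miR-92a each occur once among the mature sequences of the cluster. Dleu2 hosts a pair of microRNAs, on the minus strand of the same chromosome, with the common seed AGCAGCA.
miR-15a-5p: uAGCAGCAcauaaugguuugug
miR-16-5p: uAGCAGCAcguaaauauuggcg

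The RefSeq gene model of Mir17hg begins inside the cluster. The hairpins of Mir17, Mir18, Mir19a and Mir20a lie before its first base, Mir19b-1 lies across it, and Mir92-1 lies within the model. The window from 250 bases before to 50 bases after that start therefore holds microRNA sequence and not a promoter of the cluster, as shown here for chr14:115044140-115044439 (plus strand, GRCm38.p6), where the capitals mark the 91 bases of mature miR-20a and miR-19b-1 strands.
Mir17hg window: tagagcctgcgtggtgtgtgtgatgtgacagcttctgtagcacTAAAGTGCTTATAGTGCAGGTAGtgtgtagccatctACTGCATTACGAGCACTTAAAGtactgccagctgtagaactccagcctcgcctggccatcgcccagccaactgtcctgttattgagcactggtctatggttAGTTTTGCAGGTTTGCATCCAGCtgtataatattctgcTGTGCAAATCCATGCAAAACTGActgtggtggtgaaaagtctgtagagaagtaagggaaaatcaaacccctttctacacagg

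The values were deposited as array intensities on a linear scale, in 35512 rows, and are given here as log2(intensity + 1). A level of 1 row is not compared with that of another. Median intensity over all rows was 345 to 375 in the untrypsinized, 389 to 408 in the trypsinized and 400 to 403 in the mock sorted arrays. The luminal epithelial markers Krt8, Krt18, Epcam and the 9 others of that list were bright in every group, the dimmest at 11.22. Olfactory receptor genes, which a mammary cell is not thought to use, had a median of 6.615 over 1027 genes, a guide to the level of an unexpressed row, which every luminal marker exceeded. Dleu2 lay below this level in every array, and Rian lay close to it. A gene was called changed at a limma adjusted p of 0.05 or below (Benjamini-Hochberg over all genes) with a change of at least 1.5-fold, which is 0.58 on the log2 scale. Changes below that fold are described where the adjusted p alone passed, and all changes are log2 differences of group means with limma's standard error (SE).

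After trypsin, Mir17hg, Malat1 and Pvt1 rose, by 1.40-fold, 1.33-fold and 1.21-fold, and no member fell. In mock sorted against untrypsinized arrays these rose again, with Airn, and Meg3 fell. The mock sort itself, mock sorted against trypsinized, left no member past the adjusted p of 0.05. None passed an unadjusted p of 0.05 either in this fit, which does not pair arrays by replicate number. None of the 8 members reached the call at 1.5-fold in any comparison. The share of all genes called was 1.46% in trypsinized against untrypsinized, 1.19% in mock sorted against trypsinized and 4.47% in mock sorted against untrypsinized. The comparisons of trypsinized and of mock sorted with untrypsinized arrays share the untrypsinized arrays, so their values are not independent.

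**Figure D1:**
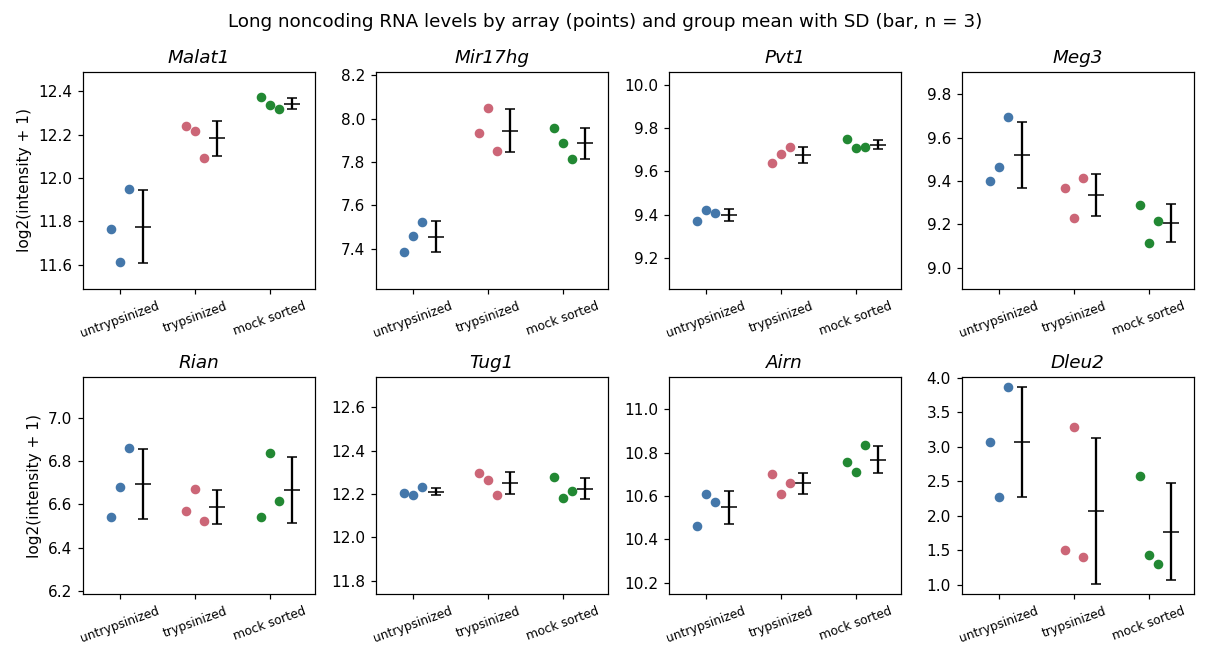
Level of each of the 8 long noncoding RNAs as log2(intensity + 1) on every array, by group, with the group mean and SD (n = 3) as a bar; each panel has its own vertical axis. The untrypsinized points of Malat1, Mir17hg and Pvt1 lie below all other points of the gene, Tug1 stays between 12.18 and 12.29, and Dleu2 spans 1.30 to 3.86.

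With the adjusted p alone, 3 of 8 members were higher and 0 lower in trypsinized against untrypsinized arrays, beside 13.9% and 11.5% of all genes. In mock sorted against untrypsinized arrays 4 were higher and 1 lower, beside 21.0% and 18.0% of all genes, and in mock sorted against trypsinized arrays 0 were higher and 0 lower, beside 0.466% and 4.2%. The 3 arrays of a group did not overlap those of the other for 4 members, all higher, after trypsin, where 25.0% of all genes were higher without overlap and 19.4% lower. The same held for 2 members, both higher, across the mock sort (9.74% and 14.3% of all genes), and for 4 higher and 1 lower in mock sorted against untrypsinized arrays (28.7% and 23.4%). The moderated F test over the 3 groups passed for Pvt1 (adjusted p = 0.000558), Mir17hg (0.00136), Malat1 (0.00293) and Airn (0.0326), and not for Meg3 (0.0537), Rian (0.641), Tug1 (0.684) or Dleu2 (0.226), where 33.2% of all genes passed. With 8 members these shares rest on few genes.

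**Figure D2:**
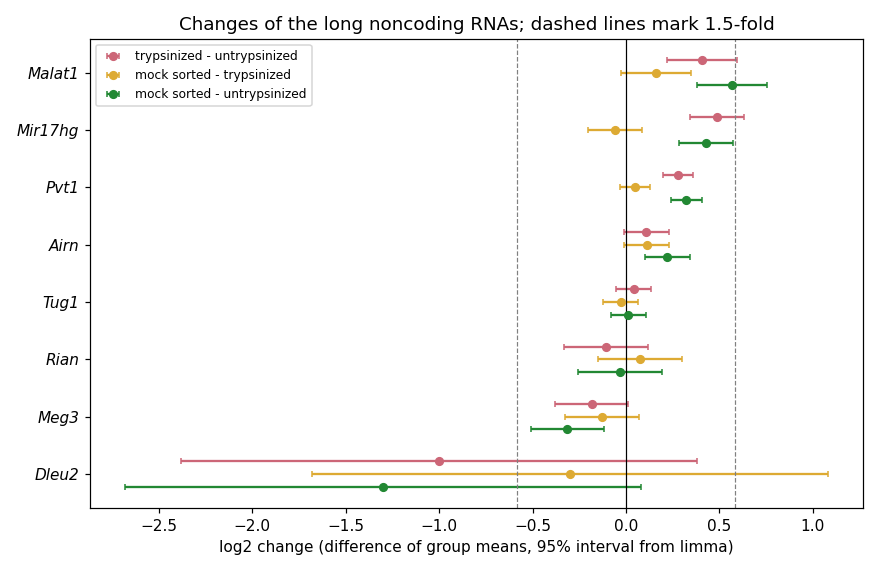
Log2 change of each long noncoding RNA (horizontal axis) in the 3 comparisons, with limma's 95% interval from the fit that does not pair arrays. Dashed lines mark 1.5-fold in each direction. The intervals of Malat1, Mir17hg and Pvt1 lie above 0 in both comparisons with untrypsinized arrays, that of Meg3 lies below 0 in mock sorted against untrypsinized, and every interval of mock sorted against trypsinized includes 0.

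Mir17hg, the host transcript of the miR-17-92 microRNAs, which promote cell proliferation, measured 7.38, 7.46 and 7.52 in the untrypsinized arrays. The trypsinized arrays gave 7.93, 8.05 and 7.85, and the mock sorted arrays 7.95, 7.89 and 7.82. Every array that had met trypsin was above every array that had not, while the trypsinized and mock sorted values interleaved. The rise after trypsin was 0.49 (SE 0.06, adjusted p = 0.00185), and mock sorted cells stood 0.43 above untrypsinized cells (SE 0.06, adjusted p = 0.00128). Between mock sorted and trypsinized arrays the difference was -0.06, with a 95% interval of -0.20 to 0.09.

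The array also carries separate rows for the microRNA genes of the cluster. All 5 measured microRNA genes rose after trypsin by the adjusted p, and 4 of them were called at 1.5-fold; Mir92-1, the sixth, has no row of its own. Over all microRNA genes with a row, 53 of 296 (17.9%) rose by the adjusted p after trypsin and 15 were called higher. The files do not say which stretch each row reads, so the primary transcript, the hairpin and the mature microRNA cannot be told apart.

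Mir19b-1, one of the 2 genes with the seed GUGCAAA, measured 6.60, 6.49 and 6.37 in untrypsinized arrays, 7.63, 7.67 and 7.56 in trypsinized, and 7.66, 7.40 and 7.23 in mock sorted arrays. The untrypsinized values lay apart from all 6 others, and all 3 of them were below the olfactory receptor median, so the size of the change rests on a level not above that of unexpressed rows. The rise after trypsin was 1.13 on this scale (SE 0.11, adjusted p = 0.000528). Mock sorted arrays stood 0.94 above untrypsinized arrays (adjusted p = 0.00031), also a call.

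Mir20a measured 5.94, 6.0 and 6.03 before trypsin, 6.77, 6.84 and 6.59 after it, and 6.70, 6.55 and 6.31 after the mock sort. It rose by 0.74 after trypsin (SE 0.10, adjusted p = 0.00215), with no overlap, although its untrypsinized level was below the olfactory receptor median. Mir17, which shares the seed AAAGUGC with Mir20a, measured 6.69, 7.04 and 6.82, then 7.35, 7.12 and 7.22, then 7.36, 7.46 and 7.42. Its rise after trypsin was 0.38 (SE 0.09, adjusted p = 0.0199), the smallest of the 5. The pair with 1 seed thus differed in size, and the difference between the rows was not tested.

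Mir18 measured 7.57, 7.37 and 7.45 in untrypsinized arrays, 8.04, 8.22 and 8.03 in trypsinized arrays and 7.93, 7.91 and 7.94 in mock sorted arrays. The rise after trypsin was 0.63 (SE 0.07, adjusted p = 0.000819). Mir19a, with the seed of Mir19b-1, measured 7.49, 7.62 and 7.50, then 8.13, 8.25 and 8.02, then 8.00, 7.86 and 7.82, and rose by 0.60 (SE 0.07, adjusted p = 0.00149). In both genes the untrypsinized arrays lay below all others. Across the mock sort, Mir18, Mir19a, Mir20a and Mir19b-1 pointed lower by 0.17 to 0.24 on the log2 scale and Mir17 higher by 0.18, and none passed the adjusted p. Against untrypsinized arrays all 5 remained higher after the mock sort by the adjusted p, with changes of 0.36 to 0.94, and Mir19b-1 was the 1 called.

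**Figure D3:**
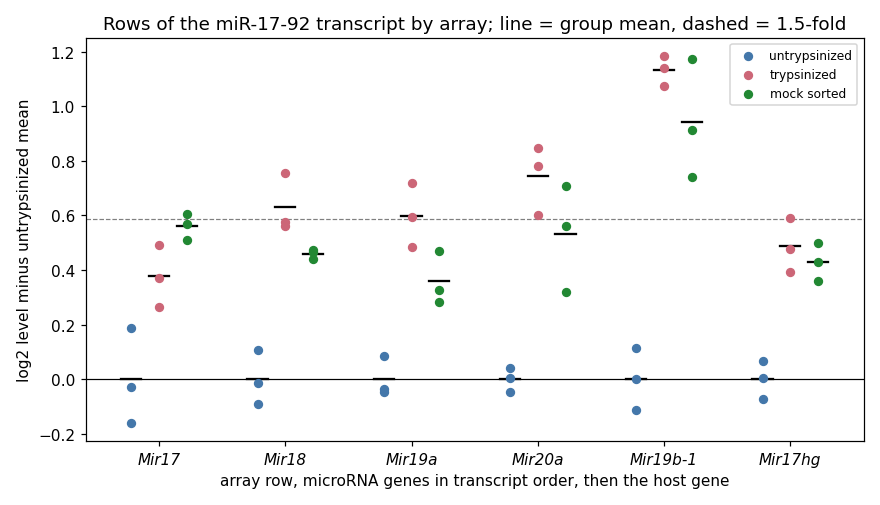
Level of the 5 microRNA rows of the miR-17-92 transcript, in transcript order, and of the Mir17hg row, minus the mean of the gene's untrypsinized arrays (vertical axis, log2; points are arrays, lines are group means, n = 3). All trypsinized and mock sorted points lie above the untrypsinized points of the same row, and the trypsinized mean passes the dashed 1.5-fold line for Mir18, Mir19a, Mir20a and Mir19b-1.

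The number of calls in the cluster depended on scaling. When the arrays were brought to a common median over all rows, 2 of the 5 microRNA genes were called after trypsin (Mir19b-1 and Mir20a), and with quantile normalization 1 (Mir19b-1), while the direction stayed higher for all 5 under every alternative. Without trypsinized replicate 2, 2 were called. The rise of Mir17 missed the adjusted p without any 1 of untrypsinized replicates 1 and 3 and trypsinized replicates 1 and 3 (adjusted p = 0.0530 to 0.0678). From untrypsinized to mock sorted, Mir19a missed it under both scalings (adjusted p = 0.0603 and 0.159), and Mir20a missed it with quantile normalization (0.25, adjusted p = 0.0863). After trypsin, quantile normalization left Mir17 short of the adjusted p (0.20, adjusted p = 0.0787), and Mir17hg passed (0.33, adjusted p = 0.00709).

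Levels also moved with brightness across the whole array, and these values stand beside the cluster because its rows are dim. Among the 3260 genes with a mean of 7 to 8, the range of most of the cluster, the median change after trypsin was 0.09, with 5% of genes above 0.36. Among the 1559 genes from 6 to 7 the median was 0.07, and among the 997 genes from 12 to 13, the range of Malat1 and Tug1, it was -0.02. All 5 microRNA genes and Mir17hg lay above the 95th percentile of genes in their range, as did Malat1 in its own. The part of array-wide brightness in these results was not tested.

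**Figure D4:**
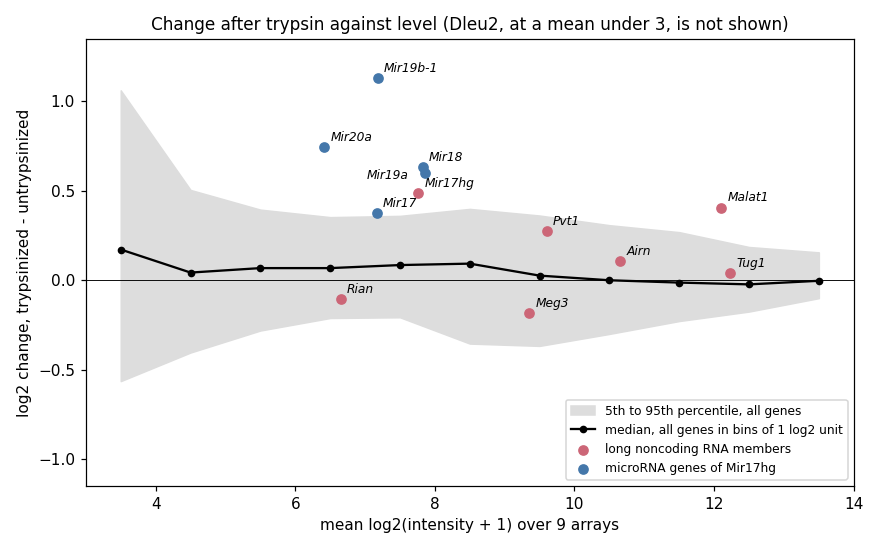
Log2 change in trypsinized against untrypsinized arrays (vertical axis) against mean log2(intensity + 1) over the 9 arrays (horizontal axis); the line is the median of all genes in bins of 1 log2 unit and the band runs from the 5th to the 95th percentile. The microRNA genes of Mir17hg, Mir17hg itself and Malat1 lie above the band, and Meg3, Rian, Tug1, Airn and Pvt1 lie within it.

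Malat1, whose loss alters splicing and gene regulation in several systems, measured 11.77, 11.61 and 11.95 in untrypsinized arrays. Its values were 12.24, 12.22 and 12.09 in trypsinized and 12.37, 12.34 and 12.32 in mock sorted arrays. The 3 groups formed 3 steps with no overlap between neighbours. The first step was a rise of 0.41 (SE 0.08, adjusted p = 0.00984). The second, 0.16, did not pass in the fit that does not pair arrays (adjusted p = 0.371, 95% interval -0.03 to 0.35). From end to end Malat1 rose 1.48-fold (0.57, SE 0.08, adjusted p = 0.00111), just short of the 1.5-fold call. It passed that call in 4 of 22 alternatives, among them the fit without untrypsinized replicate 3 (0.65), the array in which Malat1 was highest before trypsin. A further row lists Malat1 together with Ramp2 and was kept out of these tests for its pair of symbols. In a limma fit over every row it changed by 0.08 after trypsin (adjusted p = 0.213). From untrypsinized to mock sorted it changed by 0.11 (adjusted p = 0.0764), so it did not pass in either comparison.

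The promoter window of Malat1 in RefSeq (chr19:5802623-5802922, minus strand, GRCm38.p6) is shown because Malat1 rose from untrypsinized to mock sorted cells, with capitals on 3 matches to TGACG or its reverse complement CGTCA, the core of the cyclic AMP response element (CRE). The matches begin 154, 45 and 3 bases before the transcript start. Such a match is in 20.8% of the 32851 promoter windows of this length, on either strand, so it is a description and not a site.
Malat1 promoter: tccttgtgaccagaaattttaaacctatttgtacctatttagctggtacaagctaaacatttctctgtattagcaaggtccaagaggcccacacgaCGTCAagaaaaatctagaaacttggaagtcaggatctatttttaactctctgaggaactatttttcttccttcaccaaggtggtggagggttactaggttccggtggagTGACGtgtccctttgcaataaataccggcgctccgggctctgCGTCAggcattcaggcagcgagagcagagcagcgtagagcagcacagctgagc

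Pvt1, an RNA studied for its ties to Myc in cancer, had the tightest values of the members that changed. They were 9.37, 9.42 and 9.41 in untrypsinized, 9.64, 9.68 and 9.71 in trypsinized and 9.75, 9.71 and 9.71 in mock sorted arrays. The untrypsinized arrays lay below all 6 others. Pvt1 rose by 0.28 after trypsin (SE 0.04, adjusted p = 0.00169) and stood 0.32 higher in mock sorted than in untrypsinized arrays (SE 0.04, adjusted p = 0.000262). Mock sorted and trypsinized arrays differed by 0.05, with a 95% interval of -0.03 to 0.13. With a common median over all rows the rise after trypsin was 0.14 and missed the threshold (adjusted p = 0.0517). Myc, its neighbour, changed by 0.10 after trypsin without passing (SE 0.03, adjusted p = 0.0602). Of 9 Myc and E2F regulators, 1 rose and 1 fell after trypsin, near the 13.9% and 11.5% of all genes. Mxd1, a Myc antagonist, rose (0.19, adjusted p = 0.0103) and Mycl fell by 0.22 (adjusted p = 0.0114). With a common median over all rows 0 of the 9 rose and 4 fell, beside 3.74% and 28.4% of all genes.

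Meg3, a maternally expressed RNA with growth-suppressing activity in tumour cells, measured 9.40, 9.46 and 9.69 in untrypsinized arrays, 9.37, 9.23 and 9.41 in trypsinized arrays and 9.29, 9.11 and 9.22 in mock sorted arrays. Neighbouring groups overlapped, and the untrypsinized and mock sorted groups did not. Neither step passed on its own (-0.18, adjusted p = 0.148, and -0.13, adjusted p = 0.509). From untrypsinized to mock sorted Meg3 fell by 0.31 (SE 0.09, adjusted p = 0.0213), and this missed the threshold without mock sorted replicate 2, its lowest array (adjusted p = 0.0727), or replicate 3 (adjusted p = 0.0544). After trypsin alone it fell under both scalings over all rows, by 0.32 with a common median and by 0.25 with quantile normalization (adjusted p = 0.00963 and 0.0409).

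The first of 2 Meg3 promoter windows (chr12:109540746-109541045, plus strand, GRCm38.p6) is given beside that of Malat1, since the 2 RNAs moved in opposite directions from untrypsinized to mock sorted cells. Its capitals mark a full CRE, TGACGTCA, 57 bases before the start, which holds a TGACG match on each strand and occurs in 1.79% of all windows. It also holds CCAAT 100 bases and TATAAA 29 and 25 bases before the start, motifs found in 37.4% and 13.6% of windows on either strand.
Meg3 promoter: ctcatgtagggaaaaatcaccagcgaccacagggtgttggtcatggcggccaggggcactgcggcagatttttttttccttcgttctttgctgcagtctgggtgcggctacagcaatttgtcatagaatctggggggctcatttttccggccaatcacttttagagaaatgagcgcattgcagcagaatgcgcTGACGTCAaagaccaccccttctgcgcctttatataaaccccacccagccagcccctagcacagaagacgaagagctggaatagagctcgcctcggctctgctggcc
The E-box CACGTG and the AP-1 motif TGANTCA, present in 7.15% and 7.81% of windows, were matched in neither of these 2 windows. The second Meg3 window matched none of the motifs named here. TGACG or CGTCA had no match in the windows of Airn, Tug1, Rian and Mir17hg, and 2 in that of Dleu2. A link between motifs and changes was not tested.

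Rian, the neighbour of Meg3 that hosts small nucleolar RNAs, measured 6.54, 6.68 and 6.86, then 6.57, 6.67 and 6.52, then 6.54, 6.83 and 6.62. The groups overlapped throughout, and the intervals of its changes were -0.33 to 0.12 after trypsin and -0.25 to 0.20 from untrypsinized to mock sorted. The latter change passed the adjusted p in 1 of 22 alternatives, quantile normalization (-0.28, adjusted p = 0.0449). Of 53 microRNA genes listed for the Dlk1-Dio3 region, 39 were measured. After trypsin 3 of these rose and 3 fell, beside 13.9% and 11.5% of all genes. From untrypsinized to mock sorted 5 rose and 4 fell, beside 21.0% and 18.0% of all genes. The median changes of the 39 were -0.07 and 0.00. These splits depended on scaling: with a common median over all rows 1 rose and 5 fell after trypsin and 2 rose and 8 fell from untrypsinized to mock sorted, and with quantile normalization 3 rose and 8 fell, then 4 rose and 13 fell. Mir668 rose by 0.30 (SE 0.04, adjusted p = 0.00276) and Mir434 fell by 0.55 (SE 0.09, adjusted p = 0.00563) after trypsin. Mir299a was the 1 called, at 0.578-fold in mock sorted against untrypsinized arrays (-0.79, SE 0.10, adjusted p = 0.000462). Mir434 and Mir299a lay below the olfactory receptor median in every array. Of 5 protein-coding genes measured there, 2 rose and 0 fell by the adjusted p in each of these comparisons. After trypsin their median change was -0.007, and by direction 2 pointed higher and 3 lower. Rtl1, a retrotransposon-derived gene of the placenta, rose by 0.33 after trypsin (adjusted p = 0.0286) and by 0.50 from untrypsinized to mock sorted (adjusted p = 0.00304). Begain rose by 0.18 and 0.16 (adjusted p = 0.0362 and 0.0381). Neither rise after trypsin passed with a common median over all rows or with quantile normalization.

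Airn measured 10.46, 10.61 and 10.57 in untrypsinized, 10.70, 10.61 and 10.66 in trypsinized and 10.76, 10.71 and 10.83 in mock sorted arrays. Neighbouring groups did not overlap, although untrypsinized replicate 2 and trypsinized replicate 2 were nearly level. Each step was 0.11 and did not pass (adjusted p = 0.157 and 0.338), while the whole span rose by 0.22 (SE 0.05, adjusted p = 0.0122). That rise was 0.07 with a common median over all rows (adjusted p = 0.274). Igf2r, the receptor gene that Airn silences on the paternal copy, rose by 0.29 after trypsin (SE 0.04, adjusted p = 0.00365) and by 0.37 from untrypsinized to mock sorted (SE 0.04, adjusted p = 0.000478). Mas1, a further gene of the region, was called lower in the same comparisons (-0.86, adjusted p = 0.00149, and -1.03, adjusted p = 0.000188). Airn and Igf2r overlap on opposite strands, and the strand each row reads is not given in the sources used here, so signal of the one in the row of the other cannot be told apart.

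Tug1 measured 12.21, 12.20 and 12.23 in untrypsinized, 12.29, 12.26 and 12.20 in trypsinized and 12.28, 12.18 and 12.21 in mock sorted arrays. Its groups overlapped in every comparison. The 95% intervals of its changes were -0.05 to 0.13 after trypsin, -0.12 to 0.07 across the mock sort and -0.08 to 0.11 from end to end, all inside 1.5-fold. Morc2a, its neighbour, rose by 0.18 after trypsin (SE 0.04, adjusted p = 0.0119).

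Dleu2, a host gene in a region often deleted in human leukaemia, had a very dim row. It measured 3.06, 2.28 and 3.86 in untrypsinized, 1.51, 3.29 and 1.41 in trypsinized and 2.57, 1.43 and 1.30 in mock sorted arrays. The values overlapped and scattered over more than 2 log2 units, so the change after trypsin, -1.0 (SE 0.60, adjusted p = 0.249), has an interval of -2.38 to 0.38. The rows of its microRNAs were brighter. Mir16-1 rose by 0.25 after trypsin (SE 0.07, adjusted p = 0.0383), and Mir15a, with the same seed, changed by 0.04 (adjusted p = 0.721). The rise of Mir16-1 was lost with a common median over all rows, with quantile normalization and in a fit without replicate 1 of either trypsin-treated group.

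The members were set beside other genes of their class. Of 675 genes that RefSeq classes as lncRNA, 167 (24.7%) rose and 7 (1.04%) fell by the adjusted p after trypsin, with a median change of 0.15, whereas of 18555 protein-coding genes 13.2% rose and 12.2% fell, with a median of 0.03. From untrypsinized to mock sorted 263 lncRNA genes (39.0%) rose and 16 fell. Of 53 small nucleolar RNA genes, which guide the modification of ribosomal RNA, 26 rose and 1 fell after trypsin. Of the members, 3 of 8 rose after trypsin and 4 of 8 from end to end, and the members are themselves among the 675. These splits depend on scaling. With a common median over all rows 64 lncRNA genes rose and 41 fell after trypsin (median 0.02), and of protein-coding genes 3.26% rose and 30.1% fell. With quantile normalization 64 lncRNA genes rose and 40 fell.

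**Figure D5:**
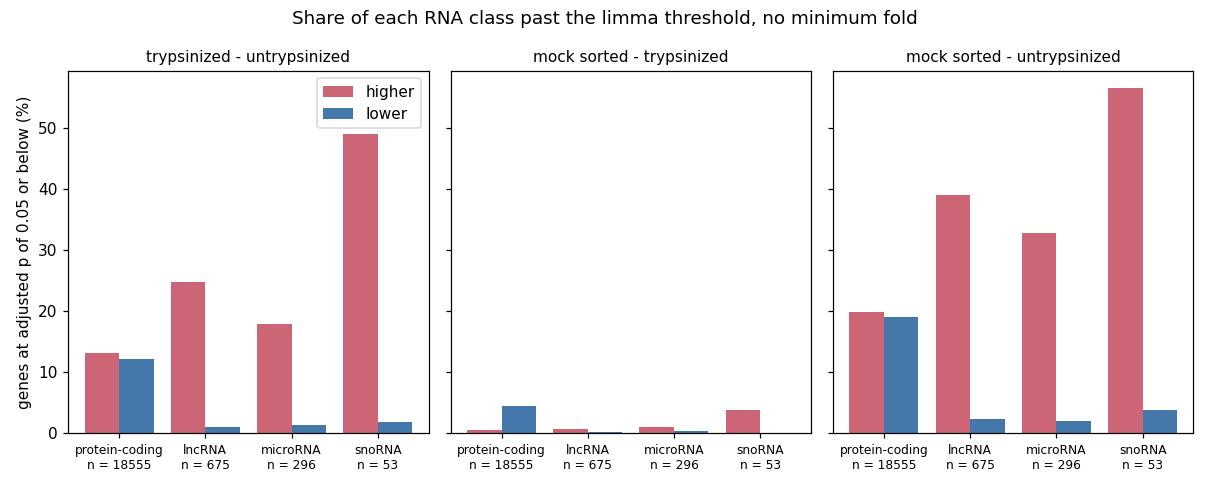
Share of the genes of each RNA class at a limma adjusted p of 0.05 or below (vertical axis, percent), higher and lower, in the 3 comparisons, with the number of genes under each pair of bars. Higher exceeds lower among lncRNA, microRNA and small nucleolar RNA genes in both comparisons with untrypsinized arrays, while protein-coding genes split about evenly.

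Of 48 further genes listed by name, mostly long noncoding RNAs, 18 were measured. The 18 include the structural RNAs Rmrp, Rpph1, Terc and Rn7sk and the phosphatase gene Ptprv. Over all genes 13.9% rose and 11.5% fell after trypsin, and 21.0% rose and 18.0% fell from untrypsinized to mock sorted. Of the 18, 7 rose and 0 fell after trypsin, and Firre, a nuclear RNA that organises chromosome contacts, was called higher (0.70, SE 0.10, adjusted p = 0.00271). From untrypsinized to mock sorted 8 rose and 1 fell, and the calls were Firre (0.72), the small nucleolar RNA host Snhg11 (0.74, SE 0.11, adjusted p = 0.00131) and the p53-linked Lncpint (0.63, SE 0.10, adjusted p = 0.00207). Firre measured 10.20, 10.53 and 10.54 before trypsin and 11.27, 11.08 and 11.02 after it, with no overlap. With a common median over all rows 5 of the 18 rose after trypsin and none was called.

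Further lists were read beside all genes, of which 13.9% rose and 11.5% fell by the adjusted p after trypsin. With a common median over all rows these shares were 3.74% and 28.4%. Of 13 genes measured for proteins of nuclear speckles, where Malat1 resides, and of paraspeckles, 5 rose and 0 fell after trypsin. The smallest p-values were those of Son, a speckle scaffold protein (0.31, SE 0.05, adjusted p = 0.00329), and Nxf1, an mRNA exporter (0.26, SE 0.04, adjusted p = 0.00474). The list's median change was 0.06, beside 0.04 for all genes, and with a common median over all rows 2 rose and 3 fell. Of 14 genes of nuclear RNA decay and microRNA processing, 4 rose and 0 fell, among them Upf1, a nonsense-mediated decay helicase (0.19, adjusted p = 0.0135), and Zfc3h1, an exosome adaptor (0.23, adjusted p = 0.0207). With a common median over all rows 0 rose and 5 fell. Drosha (-0.06, adjusted p = 0.349), Dgcr8 (-0.11, adjusted p = 0.121) and Dicer1 (0.12, adjusted p = 0.0947), which process the hairpins above, did not pass after trypsin. Of 16 genomic neighbours of the members, 5 rose and 0 fell, and Ltbp3, which lies near Malat1, had the smallest p-value (0.27, SE 0.03, adjusted p = 0.00135). With a common median over all rows 1 rose and 4 fell.

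Other imprinted genes were mostly lower. Of 10 measured, 6 fell and 0 rose after trypsin, beside 11.5% and 13.9% of all genes. From untrypsinized to mock sorted 6 fell and 1 rose, beside 18.0% and 21.0% of all genes. Ndn, a growth-restraining gene of neurons and stroma, fell by 0.73 (SE 0.05, adjusted p = 0.000259) and Sgce, a sarcoglycan, fell by 0.65 (SE 0.07, adjusted p = 0.000651) after trypsin, both calls. Igf2, a fetal growth factor, fell by 1.37 across the mock sort (SE 0.05, adjusted p = 3.14e-05). In mock sorted against untrypsinized arrays 5 were called, and the 4 with the smallest p-values were Igf2 (-1.78), Ndn (-1.26), Sgce (-1.23) and Mest (-1.06).

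Markers of other cell types moved with the groups. Counts of them are at the adjusted p unless given by direction. Over all genes 13.9% were higher after trypsin and 18.0% lower from untrypsinized to mock sorted by that measure. All 12 endothelial markers fell from untrypsinized to mock sorted, and their summed intensity went from 36572 to 41796 before trypsin, through 28880 to 29238 after it, to 13922 to 16452 after the mock sort. The fibroblast sum went from 38003 to 42488, through 33642 to 37341, to 30987 to 34054, with 8 of 10 markers lower from end to end. Between untrypsinized and mock sorted arrays 8 of 8 pericyte and smooth muscle markers fell (median change -1.18), as did 7 of 8 Schwann cell markers (median -1.08), 7 of 10 basal and myoepithelial markers (median -0.26), 7 of 10 skeletal muscle markers (median -0.61), 5 of 9 adipocyte markers (median -0.24) and 3 of 10 macrophage and myeloid markers (median -0.16). By direction alone, all 10 basal and myoepithelial markers and 8 of 10 macrophage and myeloid markers pointed lower. The lymphocyte sum was 3954 to 4123 before trypsin, 6869 to 17048 after it and 6005 to 14746 after the mock sort, with the replicate 1 arrays highest. After trypsin all 10 lymphocyte markers pointed higher (median 1.21), and 3 of them passed the adjusted p. The luminal sum was 85973 to 88350 before trypsin and 94829 to 95327 after the mock sort, and no marker of these lists was at 0. In bulk RNA, fewer cells of a type and less RNA per cell cannot be told apart, and the part of these shifts in the members' changes was not tested. Without replicate 1 of the trypsinized and of the mock sorted group, a fit added after the data were seen, Mir17hg rose by 0.49 after trypsin (adjusted p = 0.0129), Malat1 by 0.38 (adjusted p = 0.0496) and Pvt1 by 0.30 (adjusted p = 0.0102), and 4 microRNA genes of the cluster were called.

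Genes with the most similar profile were sought for the members that passed the adjusted p, a selection made after their values were seen. Over the 9 arrays, which share group and scaling, Mir17hg was closest to Polr1a (Pearson r = 0.990), Polr1b (0.989) and Kat5 (0.988); the first and second encode the largest subunits of RNA polymerase I. Malat1 was closest to Ttc41 (0.992), Pcsk4 (0.986) and the integrin gene Itgav (0.985). Pvt1 was closest to the transcription factor Casz1 (0.998), the amino acid transporter Slc1a4 (0.997) and Kin (0.996). Meg3 was closest to Poc1b (0.968), the olfactory receptor gene Olfr1056 (0.958) and Rasgef1a (0.952). Airn was closest to Luc7l2 (0.983), Scn9a (0.980) and Prr12 (0.9745). These correlations describe 9 arrays and carry no test.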

How the data were processed

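RNA of 9 mammary epithelial cell samples was measured on Affymetrix whole-transcript arrays, with 3 per group. The authors deposited linear-scale intensities. How background was corrected, probes summarised and arrays scaled is not given in the sources used here. Per the submitters' processing notes, limma was used. Rows were named from the platform annotation, which can be old: 21789 rows had 1 symbol, 1621 several and 12102 none. Symbols of 21698 rows were updated by gene number. The row with the highest mean stood for each of 19938 genes, and rows with several symbols were left out.

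Values were tested as log2(intensity + 1), which understates changes of dim genes, with limma 3.58.1 in R 4.3.3: 1 mean per group over all 9 arrays, empirical Bayes and Benjamini-Hochberg adjustment over all genes. The fit was tested on simulated data. The number of arrays limits the precision. Between trypsinized and mock sorted arrays, deviations of equal replicate number correlated at 0.53, 0.29 and 0.29, and those of unequal number at -0.36 to 0.16. These numbers were therefore taken to pair them, from the values alone. For untrypsinized arrays the values did not settle whether the numbers pair. Replicate 1 correlated at 0.32 with mock sorted replicate 1, but replicate 3 at 0.06 with mock sorted replicate 3 and at 0.14 with mock sorted replicate 2.

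The members and gene lists were chosen with earlier results of these data known. All 8 members are named, and of each list of companion genes (not of the cell type markers) the called genes, up to 4 by smallest p, or else the 2 with the smallest p. Morc2a, Myc, Igf2r, Drosha, Dgcr8 and Dicer1 were named beyond that rule. Genes of similar profile were to be named for called members, and were named for those past the adjusted p. Alternatives covered threshold, scaling, filters, rows, variance model, weights, block, pseudocount and left-out arrays; scaling over tested genes, leaving out both replicate 1 arrays, and the counts for the microRNA rows and RNA classes were added after seeing the data.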

Additional observations from a re-analysis of the deposited data

Results flagged for a closer look

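Rows that list a second symbol or are a second row of a gene took no part in the comparisons above, and 2 of them rose, in a limma fit over every row. The row that lists Mir92-1 with Mir17hg measured 7.17, 7.57 and 7.57 in untrypsinized, 8.17, 8.46 and 8.31 in trypsinized and 8.27, 8.29 and 8.09 in mock sorted arrays, with no overlap between the first group and the others. Its change was 0.88 after trypsin (SE 0.13, adjusted p = 0.00551) and 0.78 from untrypsinized to mock sorted (SE 0.13, adjusted p = 0.0036). The second row of Pvt1, at 4.67 to 5.32, rose by 0.38 from untrypsinized to mock sorted (SE 0.12, adjusted p = 0.0473), but all 9 of its values lay below the olfactory receptor median of 6.615, the guide to an unexpressed row, so the size of this change is uncertain.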

How the results depend on the processing

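With no minimum fold, 3 members passed after trypsin and 5 from untrypsinized to mock sorted, as did all 5 microRNA genes of Mir17hg in the latter. Over all genes 5055, 931 (mock sorted against trypsinized) and 7777 passed. With quantile normalization, 4 members passed the adjusted p after trypsin and 7 from untrypsinized to mock sorted, Rian among the latter. From untrypsinized to mock sorted, members called were 2 with quantile normalization (Dleu2 and Malat1), 1 with array weights, 1 with a common median over the tested genes (Malat1 in each), and 0 to 1 with 1 array left out. The microRNA genes of Mir17hg called after trypsin were 2 with a common median over all rows, 1 with quantile normalization and 2 to 4 with 1 array left out; from untrypsinized to mock sorted they were 2 with a common median over the tested genes, 2 without both replicate 1 arrays, and 1 to 2 with 1 array left out. Testing every row called 1441 rows after trypsin and 3035 from untrypsinized to mock sorted. Of calls after trypsin, 106 were higher and 186 lower, 55 and 376 with a common median over all rows, 57 and 279 with quantile normalization, 176 and 190 by unadjusted p, 193 and 185 with a replicate block on 9 arrays, and 1227 and 214 over every row; from untrypsinized to mock sorted 215 and 677 became 92 and 1028, and 116 and 861, under those scalings. The common median over all rows moved the median change of all genes from 0.04 to -0.10 after trypsin, so Tug1 (-0.093) and Airn (-0.024) reversed, as did Tug1 from untrypsinized to mock sorted (-0.14). Other reversals, none past the threshold, were Tug1 across the mock sort (0.017, common median over the tested genes) and, without both replicate 1 arrays, Tug1 (-0.013) and Rian (0.031) from untrypsinized to mock sorted. With 1 array left out, Rian ranged from -0.0082 to 0.138 and Dleu2 from -0.70 to 0.31 across the mock sort, and Rian from -0.115 to 0.054 and Tug1 from -0.013 to 0.034 from untrypsinized to mock sorted. A replicate block left 0 members called in each comparison; on the 6 arrays compared, Malat1 after trypsin had an adjusted p of 0.0779, Mir17 0.113 and Mir17hg 0.0408. For mock sorted against trypsinized, the paired comparison, the block could not change a member's call. It leaves the log2 changes as they are, and those of the members, -0.299 to 0.16, were too small for a call. By the adjusted p alone, which the block can alter, 0 members passed with it, on the 6 arrays compared or on all 9 arrays. Deviations of untrypsinized and trypsinized arrays of the same number correlated at 0.11, 0.04 and -0.04, and those of untrypsinized and mock sorted arrays at 0.32, 0.18 and 0.06. The causes were not tested. Brightness limits Dleu2 and Mir20a, which the filter on dim genes removed, and Mir19b-1, whose untrypsinized values lay below the olfactory receptor median.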

Other observations

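A row that lists Rian together with AF357355, a small nucleolar RNA, measured 7.84, 7.78 and 7.96 in untrypsinized, 7.27, 7.46 and 7.40 in trypsinized and 7.20, 7.34 and 7.35 in mock sorted arrays. It fell by 0.48 after trypsin (SE 0.07, adjusted p = 0.00625 in the limma fit over every row) and by 0.56 from untrypsinized to mock sorted (adjusted p = 0.00143). The row of Rian itself did not pass, except from untrypsinized to mock sorted with quantile normalization. The row that lists Malat1 with Ramp2 changed by 0.08 after trypsin (adjusted p = 0.213) and by 0.11 from untrypsinized to mock sorted (adjusted p = 0.0764).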
